A study of Saccharomyces cerevisiae with 20 samples.

Results

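Sulfate assimilation and methionine metabolism were followed across 5 overexpression strains of the yeast *Saccharomyces cerevisiae* through 32 listed genes, here called the members. The list holds the *MET*, *SUL*, *CYS*, *SAM* and *HOM* genes of the route from extracellular sulfate to methionine, cysteine and S-adenosylmethionine (AdoMet), with permeases for the sulfur compounds and the regulators of the pathway. A member had to reach a median of 1 CPM (counts per 1000000 ORF counts) over the 20 RNA-seq libraries. All 32 did, out of 5772 ORFs that passed the same filter and 6575 ORFs in the table. The lowest median was that of *MET8*, at 7.53 CPM, followed by *MET32* at 9.93 CPM, so no listed gene lay near or outside the limit.

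The libraries were made to ask how RNA levels differ among strains that each carry an extra copy of a gene found in a screen for plasmids that flatten the structured ("fluffy") colonies of strain F45. The strains overexpress *TOS8*, *SFL1*, *HEK2*, *SAN1* or *ROF1* (*YHR177W*), with 4 libraries each. Every strain is F45, which is *MAT*a, carries *SPS2*:*EGFP*:*natMX4* and *ho∆0*::*hphMX6*, and needs serine for growth through a mutation that has not been mapped. In each, the overexpressed gene sits behind its own promoter on the low-copy centromeric plasmid p5472, in addition to the chromosomal copy. Whole colonies, several pooled per sample, were harvested after 4 d at 30° on YPD with 2% glucose and G418. A library of F45 with an empty vector was not analysed here, so each strain was compared with the mean of the other 4 and with each of them, and "higher" and "lower" refer to those strains.

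The 20 libraries held between 6027147 and 35027485 counts in all (median 16474114.5). By strain, median totals were 22761754.5 in TOS8, 16474114.5 in SFL1, 27771659.5 in HEK2, 10829738.5 in SAN1 and 11877193.5 in ROF1. The strains thus differed in depth, and the part of depth in the results was not tested. The gene on the plasmid was 2.44- to 4.55-fold higher in its own strain than in the rest, and its 4 libraries lay above the other 16 in all 5 cases. Of the **a**-cell genes, *STE2* (the α-factor receptor) stood at 124 to 267 CPM, the **a**-factor genes *MFA2* and *MFA1* at 129 to 420 and 28.5 to 55.1 CPM, *STE6* at 39.1 to 59.2 CPM and *BAR1* at 8.37 to 32.8 CPM. Of the α-cell genes, the α-factor genes *MFALPHA1* and *MFALPHA2* stood at 1.55 to 5.84 and 0.286 to 1.31 CPM, and *STE3* (the **a**-factor receptor) at 17.6 to 35 CPM, a range that overlaps those of *BAR1* and *MFA1*. Libraries of the same strain differed by 5.1 to 98.9 times the variance that counting error gives, and all 20 were counted separately. Sample titles give same-numbered libraries of the 5 strains a shared YSEQ label, whose meaning is not given in the sources used here. The summed level of the 5 permeases among the members was highest in replicate 1 of every strain, at 931 CPM in TOS8 (others 684 to 823), 833 in SFL1 (634 to 788), 743 in HEK2 (638 to 675), 735 in SAN1 (603 to 657) and 643 in ROF1 (550 to 584). Most of this sum was *MUP1* (344 to 651 CPM), itself highest in replicate 1 of every strain. The permease *SUL2* did not share this order, as its replicate 1 was lowest in SFL1 (33.6 CPM) and HEK2 (36.4 CPM) and highest in SAN1 (25.5 CPM). Calls that changed when a term for the replicate number (here the replicate block) was fitted are given beside the results.

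Yeast takes up sulfate through the permeases Sul1 and Sul2, activates it with ATP and reduces it to sulfide by way of sulfite. Sulfide is joined to O-acetylhomoserine, a product of the aspartate and homoserine branch, to give homocysteine, which is methylated to methionine or passed to cysteine. Methionine is converted to AdoMet, the methyl donor of the cell. Most genes of the route are activated by the transcription factor Met4, which does not bind DNA well alone and is brought to promoters by Cbf1, Met28, Met31 and Met32. The ubiquitin ligase subunit Met30 holds Met4 inactive when sulfur compounds are plentiful.

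The upstream DNA of the members carries short motifs known for these factors. In the 500 bases before each start codon, on either strand, the Cbf1 core CACGTG was found in 21 of 32 members (65.6%), against 6.23% of the 6000 ORF windows of the S288c genome. The core CTGTGG, known for Met31 and Met32, was found in 19 members (59.4%), against 13.2% of all windows, and both of these cores in 11 (34.4%), against 0.917%. The core TGACTC of Gcn4, the activator of amino acid synthesis, was found in 12 members (37.5%), against 12.7%. *SAM4* was the member with none of the 3 letter strings, a state shared by 71.4% of all windows. A match is a description of the letters only, and F45 may differ from S288c. The 3 stretches below are those around the matches of the members with the largest range among strains, so that the sequence can be set beside the values. Each is printed 5′ to 3′ along the coding strand of its gene, and capitals mark the motif letters. CCACAG is the Met31/Met32 core and GAGTCA the Gcn4 core read on the opposite strand. They lie at chrXIV:116976-117021 on the plus strand (*MET2*, 373 to 328 bases before the start codon), at chrX:683473-683638 on the minus strand (*MET5*, 353 to 188 bases before it) and at chrXII:323190-323282 on the plus strand (*SUL2*, 354 to 262 bases before it), all in build R64.
MET2: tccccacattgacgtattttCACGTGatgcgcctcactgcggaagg
MET5: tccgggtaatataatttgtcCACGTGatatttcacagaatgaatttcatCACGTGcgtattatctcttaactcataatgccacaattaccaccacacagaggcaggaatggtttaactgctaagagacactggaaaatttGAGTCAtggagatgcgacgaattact
SUL2: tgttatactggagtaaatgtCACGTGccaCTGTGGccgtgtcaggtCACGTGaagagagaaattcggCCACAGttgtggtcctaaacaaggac

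The *MET2* stretch holds 1 Cbf1 core, that of *MET5* 2 Cbf1 cores and a Gcn4 core, and that of *SUL2* 2 Cbf1 cores with 2 Met31/Met32 cores. *MUP1* had the most Met31/Met32 cores, 4, and no Cbf1 core. The windows of *MMP1* and *MHT1*, neighbours that are transcribed away from each other on chromosome XII, overlap, so their 2 shared matches are the same sites.

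Levels of the members differed widely from gene to gene. Per kilobase of ORF length, the mean over the 20 libraries was highest for *HOM6* (466 CPM per kb), *SAM1* (400) and *SAM2* (358), and lowest for *MET8* (9.33), *SUL1* (11.1) and *SUL2* (11.3). The plot of all members in every library shows 2 broad patterns: a block of sulfate, reduction and homoserine genes that was low in the TOS8 libraries, and higher levels of most of the same block in the HEK2 libraries.

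**Figure D1:**
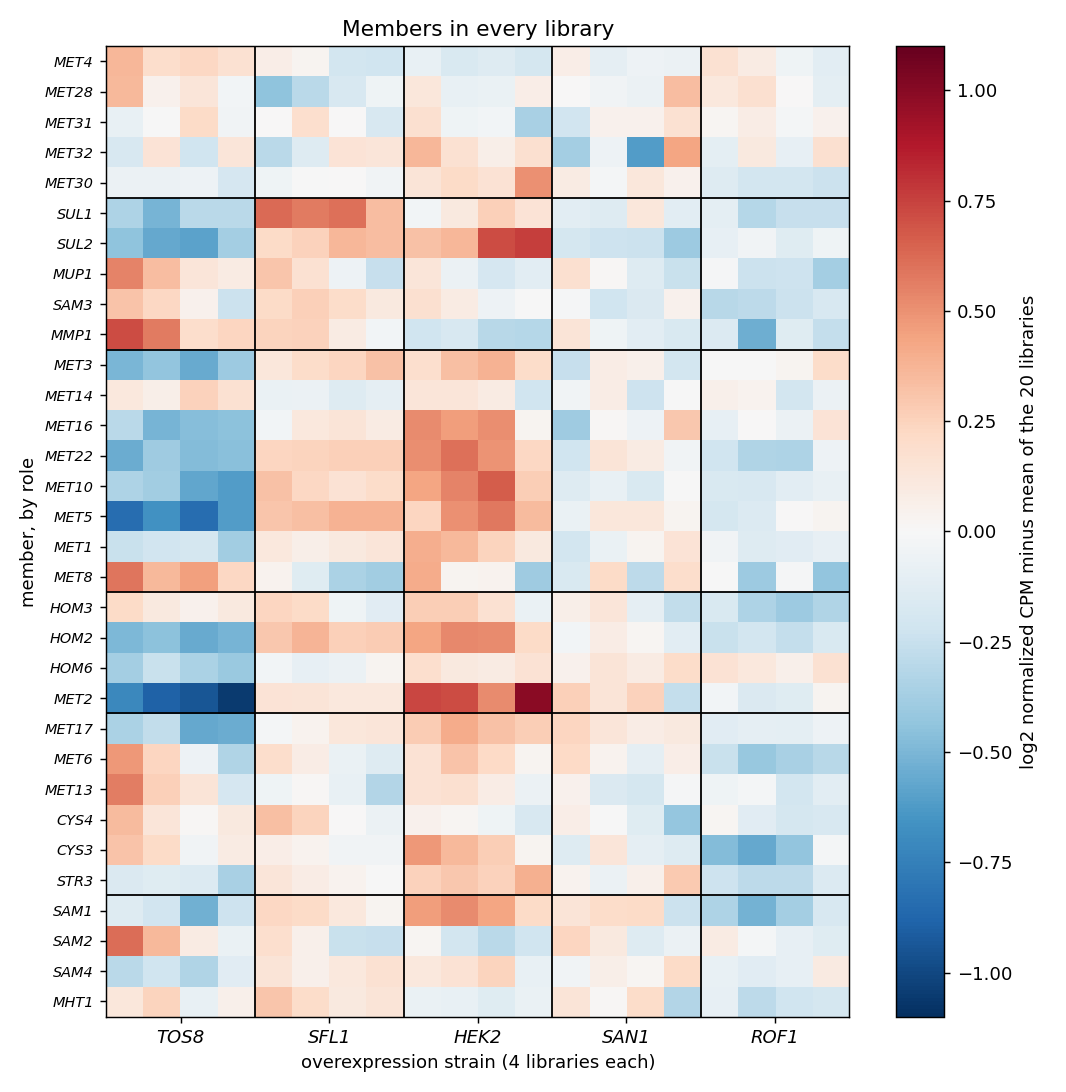
Heat map of the 32 members (vertical axis, ordered by role) in the 20 libraries (horizontal axis, 4 per overexpression strain). Colour gives log2 normalized CPM minus the mean of the 20 libraries, and the TOS8 columns are blue for *MET2*, *MET5*, *HOM2* and *SUL2*, whose TOS8 means were 16.4, 70, 196 and 20.7 CPM.

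In an F test among the 5 strains (quasi-likelihood fit in edgeR, p-values adjusted by Benjamini-Hochberg over all ORFs, threshold 0.01), 24 of 32 members differed, against 58.5% of all ORFs tested. By role, 2 of 5 regulators differed, 4 of 5 permeases, 7 of 8 genes of the sulfate to sulfide steps, 4 of 4 of the homoserine branch, 4 of 6 of the homocysteine, methionine and cysteine steps, and 3 of 4 of the AdoMet group. The 8 that missed the threshold were *MET28*, *MET31*, *MET32*, *MUP1*, *MET14*, *MET13*, *CYS4* and *SAM2*. The median range of the strain means was 0.52 on the log2 scale over the members and 0.35 over all ORFs tested. TOS8 had the lowest mean for 13 members and ROF1 for 11, and HEK2 had the highest mean for 18 and TOS8 for 9.

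In the TOS8 strain, 15 of 32 members were lower than the mean of the other 4 strains, against a background of 23.7% of all ORFs, and 5 were higher, against 24.5%. The median log2 fold-change was -0.07 over the members and -0.01 over all ORFs. The members that fell were the sulfate permeases *SUL1* and *SUL2*, 6 of the 8 sulfate to sulfide genes, 3 of the 4 homoserine branch genes, *MET17* and *STR3*, and *SAM1* and *SAM4*. Those that rose were *MET4*, *MUP1*, *MMP1*, *MET8* and *SAM2*. All 4 TOS8 libraries lay below the other 16 for 8 members (*MET3*, *MET22*, *MET10*, *MET5*, *HOM2*, *HOM6*, *MET2* and *MET17*), a separation that 9.96% of all ORFs showed. No member had all 4 TOS8 libraries above the rest, against 11.1% of ORFs. The count of members that rose was 3 without TOS8 replicate 1, and also 3 without TOS8 replicate 2. *MUP1* and *SAM2* were lost in both cases, with adjusted p up to 0.036 for *MUP1* and 0.11 for *SAM2*. Both passed when the replicate block was fitted over all 20 libraries (adjusted p = 3.9e-06 for *MUP1* and 7.7e-05 for *SAM2*). With the replicate block the count that rose was 8, with *MET14* (adjusted p = 0.0083), *MET13* (0.0037) and *CYS4* (0.0038) added, and the 15 that fell stayed 15.

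In the HEK2 strain the direction was mostly upward. There, 15 of 32 members were higher than the mean of the other 4, against 14.1% of all ORFs, and 1 was lower, against 10.4%. The median log2 fold-change was 0.21 over the members and -0.01 over all ORFs. The genes higher than that mean were *MET30*, *SUL2*, 6 of the 8 sulfate to sulfide genes (*MET3*, *MET16*, *MET22*, *MET10*, *MET5* and *MET1*), *HOM2*, *HOM6* and *MET2*, *MET17*, *CYS3* and *STR3*, and *SAM1*. The other 4 include TOS8, which had the lowest mean for 13 members. Against SAN1 alone, *MET30*, *MET16*, *HOM6*, *MET17*, *CYS3*, *STR3* and *SAM1* missed the threshold. *MET3*, *MET16* and *HOM6* missed it against ROF1 alone, and all but *MET30* and *MET2* missed it against SFL1 alone. *MMP1* fell. With the replicate block 16 members were higher, with *HOM3* added (adjusted p = 0.0042), and 3 lower, with *MET4* (0.0021) and *SAM2* (0.0048) added. All 4 HEK2 libraries lay above the other 16 for *MET30*, *MET2* and *MET17*, 3 of 32 members, against 2.39% of ORFs.

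**Figure D2:**
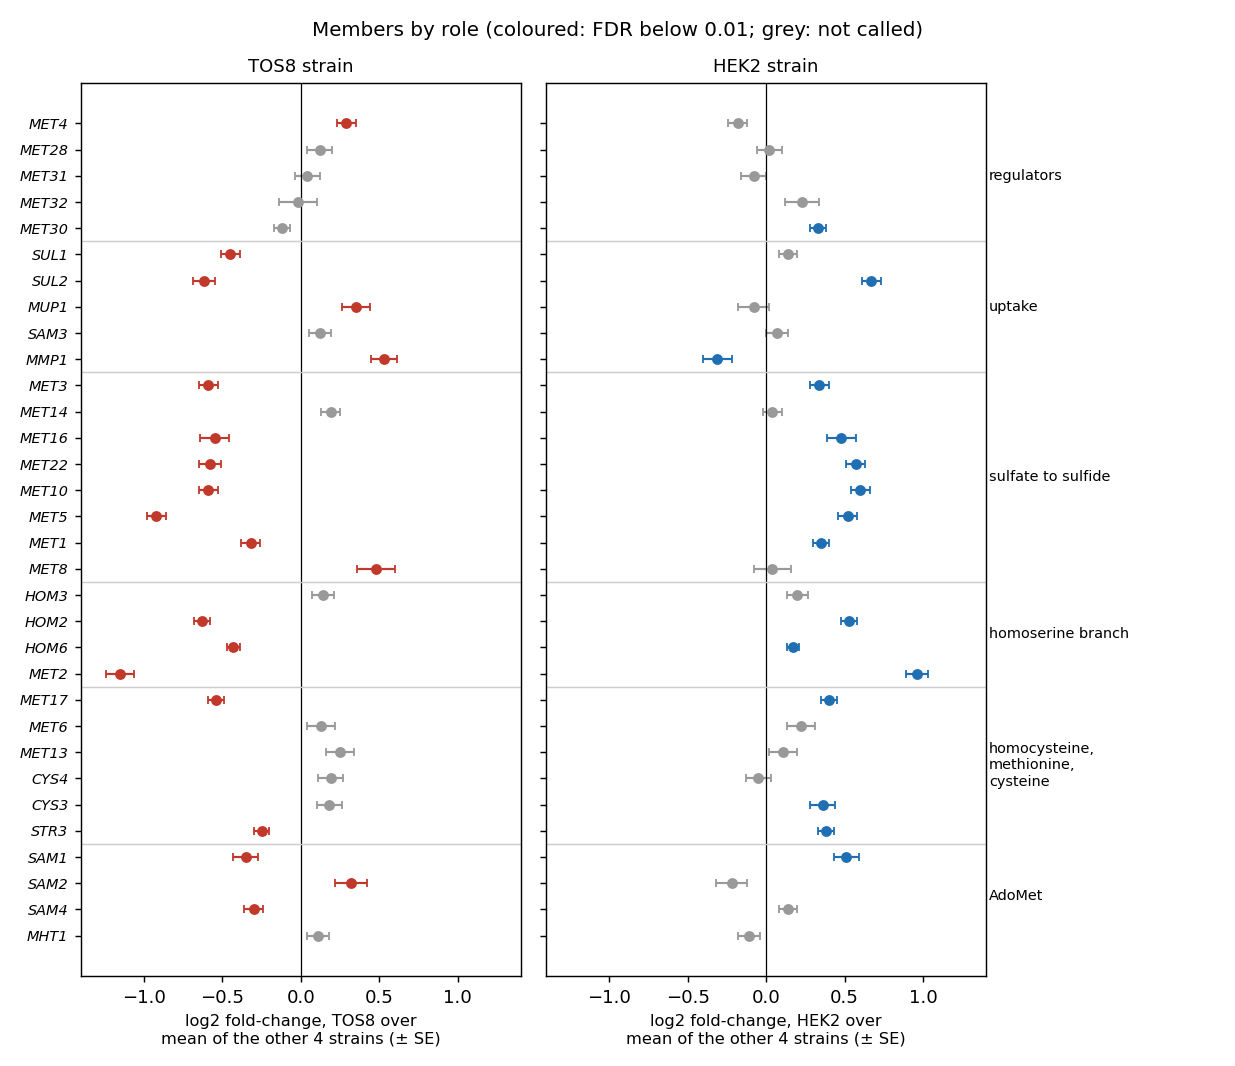
Log2 fold-change (horizontal axes, ± SE) of each member, by role, in the TOS8 strain (left) and the HEK2 strain (right) over the mean of the other 4 strains. Coloured points passed a false discovery rate of 0.01 and grey points did not; *MET2* lies at -1.15 on the left and at 0.96 on the right.

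In the SFL1 strain, 7 members were higher (background 7.93%) and 1 was lower (8.26%), with a median log2 fold-change of 0.10 over the members and 0 over all ORFs. The 7 were *SUL1*, *SUL2*, *MET3*, *MET22*, *MET10*, *MET5* and *HOM2*, which span uptake, reduction and the homoserine branch. With the replicate block 9 were higher, with *SAM3* (adjusted p = 0.0092) and *MHT1* (0.0078) added, and 0 lower. *SUL1* was the member with all 4 SFL1 libraries above the other 16, against 1.25% of ORFs. In the ROF1 strain, 10 members were lower (background 4.61%) and 0 higher (4.24%), with a median of -0.14 over the members and 0 over all ORFs. They were *MET30*, *SUL1*, *SAM3*, *MET22*, *HOM3*, *HOM2*, *MET6*, *CYS3*, *STR3* and *SAM1*. Without ROF1 replicate 2 the lower count was 2 (*HOM2* and *STR3*), and without ROF1 replicate 3 it was 4 (these and *CYS3* and *SAM1*). Without ROF1 replicate 1 the calls of *SAM3*, *MET22* and *MET6* were lost, and without ROF1 replicate 4 that of *MET6*. At an unadjusted p under 0.05, 1 member was higher in ROF1, and DESeq2 called 1. 1 was also called higher without SAN1 replicate 4. With the replicate block 12 were lower, with *MUP1* (adjusted p = 0.0011, against 0.056 without the block) and *MMP1* (0.0034) added.

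In the SAN1 strain, 1 member, *SUL2*, was lower (background 1.25%) and 0 were higher (2.04%), with a median of -0.03 over the members and 0 over all ORFs. At an unadjusted p under 0.05, edgeR had 2 members higher, and DESeq2 called 1. These 5 comparisons share libraries, so their counts are given side by side and are not independent of each other.

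**Figure D3:**
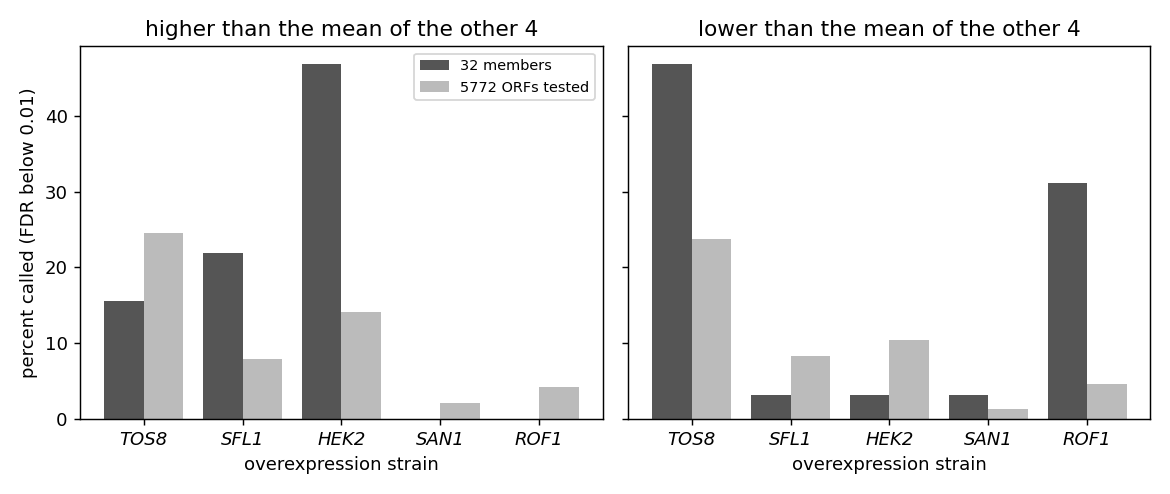
Percent of the 32 members (dark bars) and of the 5772 ORFs tested (light bars) called higher (left) or lower (right) in each overexpression strain than the mean of the other 4, at a false discovery rate below 0.01. The tall dark bars are HEK2 higher at 46.9%, TOS8 lower at 46.9% and ROF1 lower at 31.2%.

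Among the regulators, *MET4* (YNL103W, chrXIV:427735-429753, plus strand), the activator of the pathway, was the one that changed in TOS8. It stood at 131, 116, 119 and 114 CPM in the TOS8 libraries, and at 107, 104, 88.5 and 87.6 CPM in SFL1, 95.9, 90.7, 92.1 and 89.1 CPM in HEK2, 107, 94.9, 97.9 and 97.5 CPM in SAN1 and 114, 108, 98.3 and 93.7 CPM in ROF1. The lowest TOS8 value, 114, was matched by ROF1 replicate 1. *MET4* rose by 0.29 in TOS8 on the log2 scale (SE 0.06, adjusted p = 0.00017), while the sulfate permeases and most reduction genes fell in the same libraries.

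*MET30* (YIL046W, chrIX:268651-270573, plus strand), which encodes the F-box protein that targets Met4, averaged 193 ± 8.33 CPM in TOS8, 203 ± 3.58 in SFL1, 247 ± 30.5 in HEK2, 215 ± 9.35 in SAN1 and 180 ± 5.08 in ROF1 (SD, n = 4 each). It was higher in HEK2 than in the mean of the other 4 by 0.33 (SE 0.05, adjusted p = 5.1e-05), with HEK2 replicate 4 at 292 CPM and the other 3 at 228 to 238. In ROF1 it was lower (-0.25, SE 0.05, adjusted p = 0.0029), a call that was lost without ROF1 replicate 2 or 3 (adjusted p up to 0.018).

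The DNA-binding partners among the members did not pass the F test. For *MET28* the range was 0.36 on the log2 scale (F test adjusted p = 0.032), close to the 0.38 of *MET4* and under the 0.45 of *MET30*. *MET28* (YIR017C, chrIX:383556-384119, minus strand), which stabilizes the Met4 complexes on DNA, averaged 18 ± 2.12 CPM in TOS8, 14 ± 1.65 in SFL1, 16.6 ± 1.2 in HEK2, 17.3 ± 2.39 in SAN1 and 17.1 ± 1.44 in ROF1. *MET31* (YPL038W) and *MET32* (YDR253C), paralogs encoding zinc-finger proteins, had the ranges 0.09 and 0.34 on the log2 scale and adjusted F-test p-values of 0.9 and 0.34 (edgeR). *MET31* averaged 17.8 ± 1.66 CPM in TOS8, 17.6 ± 1.82 in SFL1, 16.9 ± 2.48 in HEK2, 17.7 ± 1.89 in SAN1 and 17.9 ± 0.561 in ROF1. *MET32* averaged 9.37 ± 1.27 CPM in TOS8, 9.3 ± 1.41 in SFL1, 10.8 ± 0.977 in HEK2, 8.84 ± 2.88 in SAN1 and 9.65 ± 0.951 in ROF1.

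*MET28* was the 1 member lower in SFL1. It stood at 12.1, 13.4, 14.6 and 15.9 CPM in the SFL1 libraries, against 17.9, 15.5, 15.6 and 17.3 CPM in HEK2, 16.5, 16, 15.7 and 20.8 CPM in SAN1, 17.8, 18.6, 16.5 and 15.3 CPM in ROF1 and 21, 17, 18 and 16.1 CPM in TOS8. SFL1 replicate 4 overlapped the other strains and the remaining 3 SFL1 libraries lay below all of them. The log2 fold-change was -0.29 (SE 0.08, adjusted p = 0.0088). The call was lost without SFL1 replicate 1, 2 or 3, HEK2 replicate 1 or 4, SAN1 replicate 1, ROF1 replicate 1, 2 or 3, or TOS8 replicate 1, 2 or 3, with adjusted p up to 0.053, leaving 0 members lower. It was also lost with the replicate block (adjusted p = 0.011). At an unadjusted p under 0.05, 2 members were lower in SFL1.

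**Figure D4:**
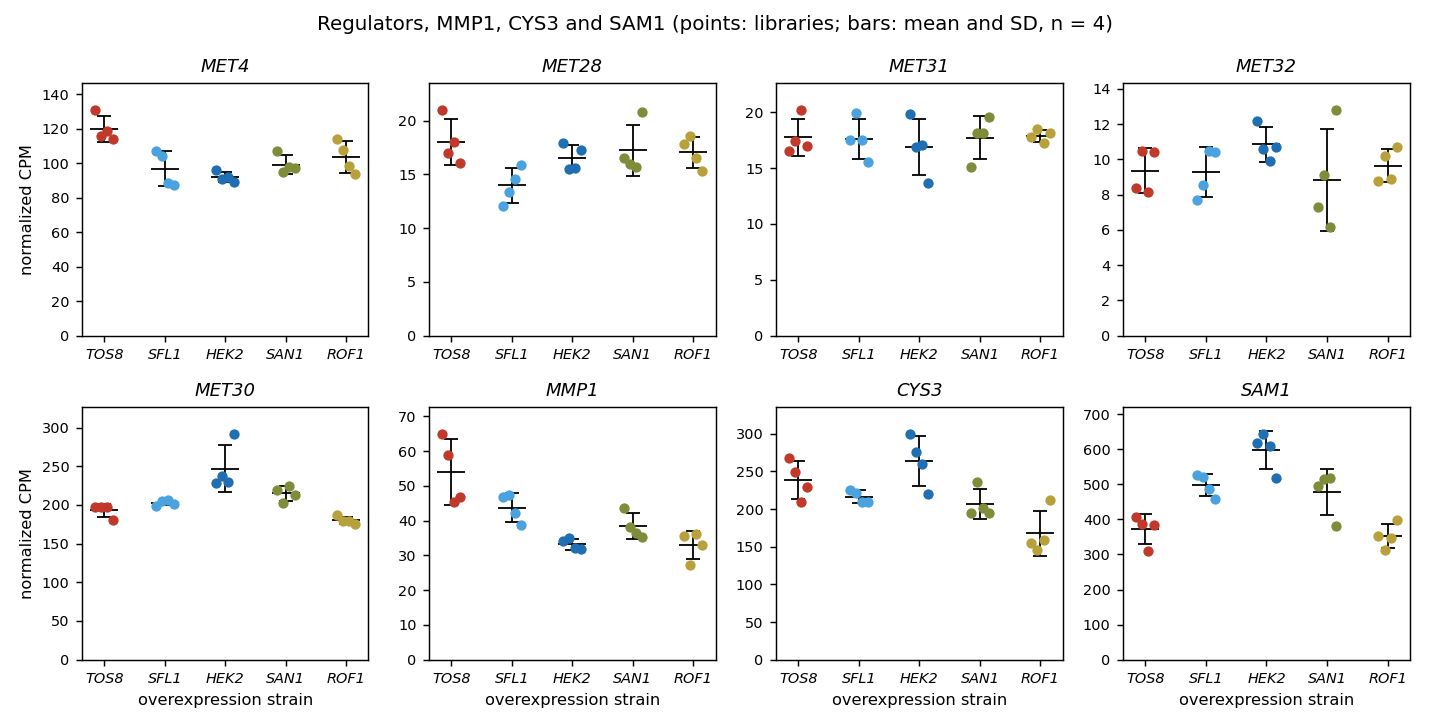
Normalized CPM (vertical axes) of the 5 regulators and of *MMP1*, *CYS3* and *SAM1* in the 5 strains. Points are libraries and bars the mean and SD of 4; the *MET31* means lie between 16.9 and 17.9 CPM, and the 4 TOS8 points of *MMP1* between 45.4 and 65 CPM.

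Both sulfate permeases were lower in TOS8, and each had its highest mean in another strain. *SUL1* (YBR294W, chrII:789235-791814, plus strand), a high-affinity sulfate permease, stood at 43, 41.4, 42.4 and 35.4 CPM in SFL1, against 22.1, 19.6, 22.7 and 22.7 CPM in TOS8, 27.4, 30.1, 33.4 and 31 CPM in HEK2, 25.8, 25.3, 30.4 and 25.8 CPM in SAN1 and 25.9, 22.5, 23.4 and 23.5 CPM in ROF1. Every SFL1 library was above every other library. The log2 fold-change of SFL1 over the mean of the other 4 was 0.68 (SE 0.06, adjusted p = 3.9e-08). *SUL1* was lower in TOS8 (-0.45, SE 0.06, adjusted p = 4.9e-06) and in ROF1 (-0.29, SE 0.06, adjusted p = 0.0041, and up to 0.034 without ROF1 replicate 2 or 3). Strains next to each other in the order SFL1, HEK2, SAN1, ROF1, TOS8 differed only between SFL1 and HEK2 (0.43, SE 0.07, adjusted p = 0.00081).

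*SUL2* (YLR092W, chrXII:323544-326225, plus strand), which encodes the other sulfate permease, had its highest levels in HEK2. Its values were 36.4, 37.6, 47.8 and 49.3 CPM in HEK2, against 21.4, 19.7, 19.4 and 22.5 CPM in TOS8, 33.6, 34.8, 37.5 and 36.9 CPM in SFL1, 25.5, 24.8, 24.7 and 22 CPM in SAN1 and 27.4, 28.3, 26.5 and 28.1 CPM in ROF1. The HEK2 and SFL1 libraries overlapped with each other and lay above all others, and the TOS8 libraries overlapped with 1 SAN1 library. The log2 fold-change was 0.67 in HEK2 (SE 0.06, adjusted p = 1.7e-07), 0.37 in SFL1 (SE 0.07, adjusted p = 0.00035) and -0.62 in TOS8 (SE 0.07, adjusted p = 4.5e-07), each against the mean of the other 4. In SAN1 it was -0.32 (SE 0.07, adjusted p = 0.0094), the 1 member lower there. That call was lost when any library other than HEK2 replicate 1, 2 or 4 was left out, with adjusted p up to 0.044, leaving 0, and with the replicate block (adjusted p = 0.01). The neighbours SFL1 and HEK2 (-0.24, SE 0.08, adjusted p = 0.059), SAN1 and ROF1 (-0.18, SE 0.09, adjusted p = 0.3) and SAN1 and TOS8 (0.24, SE 0.09, adjusted p = 0.043) were not separated, and SFL1 and ROF1 were (0.38, SE 0.09, adjusted p = 0.003).

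Of the permeases for organic sulfur compounds, *MMP1* and *MUP1* rose in TOS8. *MMP1* (YLL061W, chrXII:17956-19707, plus strand), the S-methylmethionine permease, stood at 65, 58.9, 45.4 and 46.7 CPM in TOS8, against 46.9, 47.3, 42.1 and 38.7 CPM in SFL1, 34.1, 35.1, 32 and 31.9 CPM in HEK2, 43.7, 38.3, 36.5 and 35.3 CPM in SAN1 and 35.7, 27.3, 36.1 and 33.1 CPM in ROF1. Replicates 1 and 2 of TOS8 lay above all other libraries and replicates 3 and 4 within the SFL1 range. It rose by 0.53 in TOS8 (SE 0.08, adjusted p = 1.1e-05).

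In HEK2, the log2 fold-change of *MMP1* was -0.31 (SE 0.09, adjusted p = 0.0075). This call, the 1 lower member in HEK2, was lost without any 1 of the 4 HEK2 libraries, SFL1 replicate 1 or 2, SAN1 replicate 1, ROF1 replicate 1 or 3, or TOS8 replicate 2, with adjusted p up to 0.034, leaving 0 lower. The lower count was 2 without SFL1 replicate 4, and 2 without ROF1 replicate 4. *MUP1* (YGR055W), the high-affinity methionine permease, averaged 545 ± 80.8 CPM in TOS8, 463 ± 76.9 in SFL1, 430 ± 41.8 in HEK2, 433 ± 55.9 in SAN1 and 386 ± 40.5 in ROF1. Its log2 fold-change in TOS8 was 0.35 (SE 0.09, adjusted p = 0.0029, and up to 0.036 without TOS8 replicate 1 or 2). With the replicate block the adjusted p of *MUP1* there was 3.9e-06. *SAM3* (YPL274W), the AdoMet permease, was lower in ROF1 by the same test (-0.32, SE 0.07, adjusted p = 0.004, and up to 0.025 without ROF1 replicate 1, 2 or 3), and its 4 ROF1 libraries, at 112 to 122 CPM, overlapped with SAN1 and TOS8.

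Of the 8 genes that carry sulfate to sulfide, *MET5* (YJR137C, chrX:678957-683285, minus strand), the β subunit of sulfite reductase, had the largest range (1.15 on the log2 scale). It stood at 65.1, 73.4, 65.3 and 76 CPM in TOS8, against 144, 147, 152 and 152 CPM in SFL1, 137, 165, 174 and 148 CPM in HEK2, 111, 127, 127 and 119 CPM in SAN1 and 102, 105, 117 and 119 CPM in ROF1. The TOS8 libraries were all below the rest, and the SFL1 and HEK2 libraries all above those of SAN1 and ROF1. *MET5* fell in TOS8 by 0.92 (SE 0.06, adjusted p = 5.2e-10), a 0.529-fold level, and rose by 0.52 in HEK2 (SE 0.06, adjusted p = 7.8e-07) and by 0.44 in SFL1 (SE 0.06, adjusted p = 1.2e-05). The pairs SFL1 and HEK2 (-0.07, SE 0.07, adjusted p = 0.61) and SAN1 and ROF1 (0.13, SE 0.08, adjusted p = 0.35) were not separated.

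*MET10* (YFR030W, chrVI:213312-216419, plus strand), the α subunit of the same reductase, followed a like order. Its levels were 103, 100, 87.3 and 85.2 CPM in TOS8, against 163, 152, 145 and 150 CPM in SFL1, 176, 190, 206 and 157 CPM in HEK2, 118, 123, 116 and 130 CPM in SAN1 and 116, 115, 120 and 123 CPM in ROF1. TOS8 was again below all other libraries, and the SAN1 and ROF1 libraries overlapped. The log2 fold-change was -0.59 in TOS8 (SE 0.06, adjusted p = 1.1e-07), 0.60 in HEK2 (SE 0.06, adjusted p = 1.5e-07) and 0.28 in SFL1 (SE 0.06, adjusted p = 0.0011).

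*MET22* (YOL064C, chrXV:206103-207176, minus strand) encodes the nucleotidase that removes the adenosine bisphosphate left by sulfate reduction. It stood at 80.1, 89.3, 84.5 and 85.3 CPM in TOS8, against 138, 139, 141 and 141 CPM in SFL1, 167, 178, 165 and 137 CPM in HEK2, 101, 129, 125 and 114 CPM in SAN1 and 101, 93, 92.9 and 113 CPM in ROF1. The TOS8 libraries did not overlap with any other, and HEK2 replicate 4 fell just under the SFL1 range. *MET22* fell in TOS8 by 0.58 (SE 0.07, adjusted p = 3.9e-07) and rose in HEK2 by 0.57 (SE 0.06, adjusted p = 6.6e-07) and in SFL1 by 0.31 (SE 0.06, adjusted p = 0.001). It was also lower in ROF1 (-0.30, SE 0.07, adjusted p = 0.0041, and up to 0.03 without ROF1 replicate 1, 2 or 3).

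*MET16* (YPR167C, chrXVI:876847-877632, minus strand), the reductase of activated sulfate, had a smaller range, 0.81 on the log2 scale. It stood at 17.3, 14.9, 15.3 and 15.5 CPM in TOS8, against 20.8, 23, 23.4 and 22.6 CPM in SFL1, 30.4, 29.2, 30.2 and 21.6 CPM in HEK2, 16.2, 21.4, 20.4 and 26 CPM in SAN1 and 19.9, 21.3, 20.3 and 23.5 CPM in ROF1. TOS8 overlapped with SAN1 replicate 1, and HEK2 replicate 4 sat among the SFL1 and ROF1 values, away from the other 3 HEK2 libraries. Its log2 fold-change was -0.55 in TOS8 (SE 0.09, adjusted p = 4.6e-05) and 0.48 in HEK2 (SE 0.09, adjusted p = 0.00024).

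The remaining genes of these steps were less variable. *MET3* (YJR010W), ATP sulfurylase, averaged 42.1 ± 1.95 CPM in TOS8, 68.2 ± 3.83 in SFL1, 70.9 ± 4.73 in HEK2, 55.6 ± 6.65 in SAN1 and 60.8 ± 4.32 in ROF1, and it fell in TOS8 by 0.59 (SE 0.06, adjusted p = 1.1e-07). *MET1* (YKR069W) and *MET8* (YBR213W) both serve the synthesis of siroheme, the cofactor of sulfite reductase, and they differed in direction in TOS8, with log2 fold-changes of -0.32 (SE 0.06, adjusted p = 6.7e-05) and 0.48 (SE 0.12, adjusted p = 0.0014). *MET14* (YKL001C), the kinase between Met3 and Met16, had log2 differences of 0.19 in TOS8 (SE 0.06, adjusted p = 0.012, and 0.0083 with the replicate block) and 0.04 in HEK2 (SE 0.06, adjusted p = 0.6) and did not differ in the F test (adjusted p = 0.051).

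**Figure D5:**
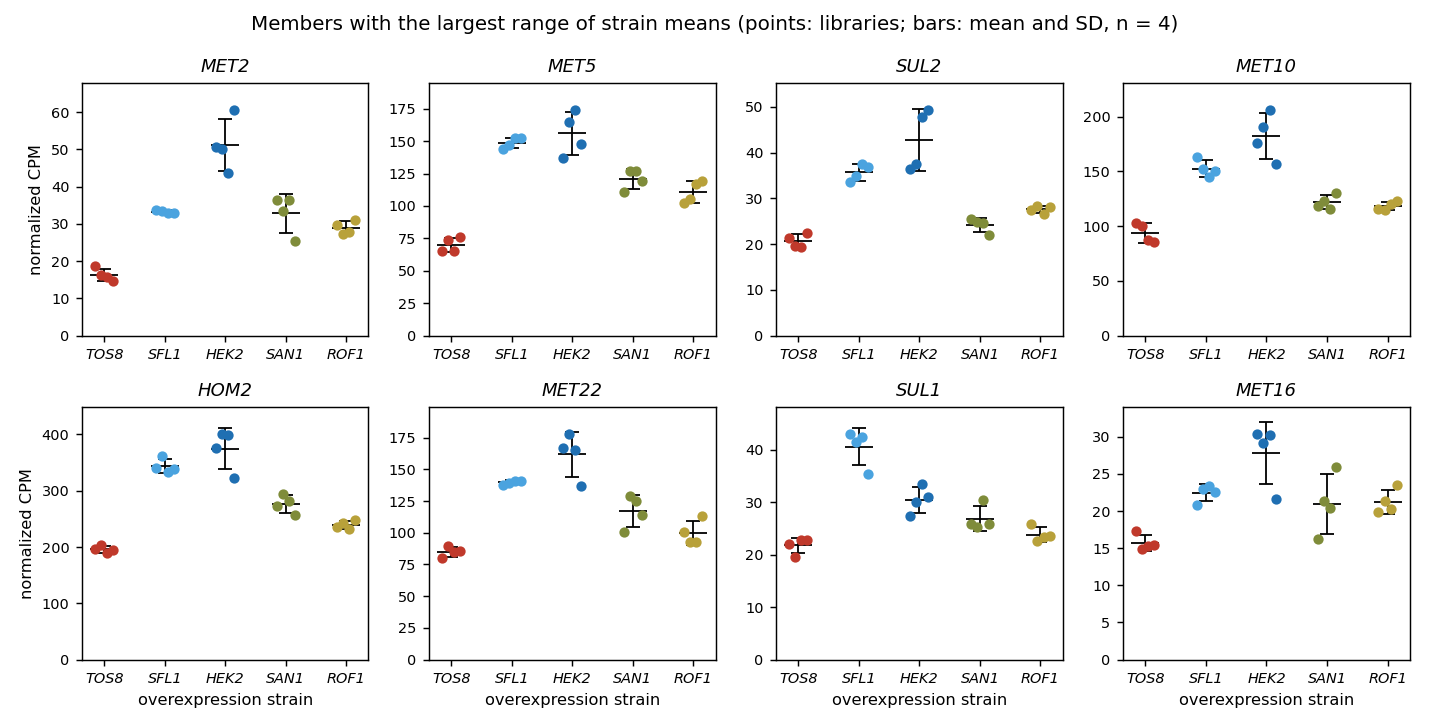
Normalized CPM (vertical axes) of the 8 members with the largest range of strain means, in the 5 overexpression strains; points are libraries and bars the mean and SD of 4. In the *MET2* panel the TOS8 points lie between 14.7 and 18.6 CPM and the HEK2 points between 43.6 and 60.6 CPM.

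In the homoserine branch, *MET2* (YNL277W, chrXIV:117349-118809, plus strand), which encodes the homoserine O-acetyltransferase that commits carbon to methionine, had the largest range of all members (1.63 on the log2 scale). It stood at 18.6, 16.4, 15.8 and 14.7 CPM in TOS8, against 33.7, 33.5, 33 and 32.9 CPM in SFL1, 50.7, 50, 43.6 and 60.6 CPM in HEK2, 36.4, 33.5, 36.3 and 25.3 CPM in SAN1 and 29.8, 27.2, 27.8 and 31.1 CPM in ROF1. All TOS8 libraries were below the other 16 and all HEK2 libraries above the rest, and SAN1 replicate 4 lay below the SFL1 and ROF1 libraries. *MET2* fell in TOS8 by 1.15 on the log2 scale (SE 0.09, adjusted p = 1.2e-09), a 0.451-fold level, and rose in HEK2 by 0.96 (SE 0.07, adjusted p = 8.9e-09).

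Between strains, *MET2* was 1.69 higher on the log2 scale in HEK2 than in TOS8 (SE 0.1, adjusted p = 6.6e-11). It was lower in SFL1 than in HEK2 (-0.64, SE 0.09, adjusted p = 0.00012) and higher in ROF1 than in TOS8 (0.83, SE 0.1, adjusted p = 4.1e-06). SFL1 and SAN1 (0.01, SE 0.1, adjusted p = 0.96) and SAN1 and ROF1 (0.20, SE 0.1, adjusted p = 0.29) were not separated. The ORF *YNL276C* lies on the other strand of *MET2* and overlaps 25.9% of it. Counts were assigned by strand, and the log2 fold-change of *YNL276C* in TOS8 was -0.34 (SE 0.09, adjusted p = 0.0033). In the F test among the strains *YNL276C* missed the threshold (adjusted p = 0.016), with strain means between 8.38 and 11.2 CPM.

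*HOM2* (YDR158W, chrIV:770357-771454, plus strand), aspartate semialdehyde dehydrogenase, had 197, 203, 189 and 195 CPM in TOS8, against 341, 361, 333 and 338 CPM in SFL1, 376, 401, 399 and 322 CPM in HEK2, 272, 294, 282 and 257 CPM in SAN1 and 235, 242, 232 and 248 CPM in ROF1. The 4 TOS8 libraries lay lowest, then those of ROF1, then those of SAN1, with no overlap between these strains. It fell in TOS8 by 0.63 (SE 0.05, adjusted p = 6.1e-09) and rose in HEK2 by 0.53 (SE 0.05, adjusted p = 9.8e-08) and in SFL1 by 0.38 (SE 0.05, adjusted p = 1.1e-05). In ROF1 it was lower by the same test (-0.27, SE 0.05, adjusted p = 0.0011). SAN1 and ROF1 were not separated by the test (0.21, SE 0.06, adjusted p = 0.068).

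*HOM6* (YJR139C), homoserine dehydrogenase, averaged 394 ± 19.2 CPM in TOS8, 487 ± 18 in SFL1, 548 ± 17.4 in HEK2, 542 ± 24.3 in SAN1 and 545 ± 19.1 in ROF1, and its log2 fold-change in TOS8 was -0.43 (SE 0.04, adjusted p = 9.5e-08). In HEK2 it was 0.17 (SE 0.04, adjusted p = 0.0039), with adjusted p up to 0.018 when HEK2 replicate 1 or 4 was left out. For *HOM6*, HEK2 was not separated from SAN1 (0.02, SE 0.05, adjusted p = 0.87) or from ROF1 (0.01, SE 0.05, adjusted p = 0.92). *HOM3* (YER052C), the aspartate kinase at the head of the branch, showed another order: 208, 193, 186 and 193 CPM in TOS8 and 160, 142, 136 and 143 CPM in ROF1. It was lower in ROF1 than in the mean of the other 4 (-0.39, SE 0.08, adjusted p = 0.0016, and up to 0.012 without ROF1 replicate 2 or 3), and its log2 fold-change in TOS8 was 0.14 (SE 0.07, adjusted p = 0.11).

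At the meeting point of both branches, *MET17* (YLR303W), the O-acetylhomoserine sulfhydrylase that takes in sulfide, stood at 301, 319, 260 and 263 CPM in TOS8, against 353 to 509 CPM in the other 16 libraries. Its 4 HEK2 libraries, at 467, 509, 479 and 462 CPM, were the highest. The log2 fold-change was -0.54 in TOS8 (SE 0.05, adjusted p = 5.9e-08) and 0.40 in HEK2 (SE 0.05, adjusted p = 4.3e-06).

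*CYS3* (YAL012W, chrI:130799-131983, plus strand), cystathionine γ-lyase, was the member with the largest fall in ROF1. It had 155, 146, 159 and 212 CPM in ROF1, against 268, 249, 209 and 229 CPM in TOS8, 226, 221, 209 and 209 CPM in SFL1, 300, 276, 260 and 220 CPM in HEK2 and 195, 236, 201 and 195 CPM in SAN1. ROF1 replicates 1, 2 and 3 were below all other libraries and replicate 4 was among them. The log2 fold-change in ROF1 was -0.46 (SE 0.09, adjusted p = 0.0011, and 0.013 without ROF1 replicate 2). In HEK2 it was 0.36 (SE 0.08, adjusted p = 0.0019, and up to 0.014 without HEK2 replicate 1 or 2).

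*STR3* (YGL184C), cystathionine β-lyase, rose in HEK2 by 0.38 (SE 0.05, adjusted p = 1.2e-05) and was lower in ROF1 (-0.30, SE 0.06, adjusted p = 0.00082) and in TOS8 (-0.25, SE 0.05, adjusted p = 0.00057). *MET6* (YER091C), methionine synthase, was lower in ROF1 by the same test (-0.42, SE 0.1, adjusted p = 0.0051, and up to 0.031 without any 1 of the ROF1 libraries), and its TOS8 libraries spread between 397 and 693 CPM. *MET13* (YGL125W), a methylenetetrahydrofolate reductase, and *CYS4* (YGR155W), cystathionine β-synthase, missed the threshold in all 5 comparisons with the other strains. Their log2 fold-changes in TOS8 were 0.25 (SE 0.09, adjusted p = 0.017) and 0.19 (SE 0.08, adjusted p = 0.049), and both passed there with the replicate block (adjusted p = 0.0037 and 0.0038).

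The AdoMet synthetases *SAM1* (YLR180W) and *SAM2* (YDR502C) moved in opposite directions in TOS8. *SAM1* stood at 408, 387, 311 and 383 CPM in TOS8, 354, 314, 346 and 398 CPM in ROF1, and at 459 to 644 CPM in SFL1 and HEK2, while *SAM2* stood at 623, 521, 434 and 387 CPM in TOS8. The TOS8 libraries of *SAM1* overlapped with those of ROF1 and with SAN1 replicate 4 (381 CPM). Those of *SAM2* overlapped with every other strain. *SAM1* fell in TOS8 by 0.35 (SE 0.08, adjusted p = 0.001, and 0.011 without TOS8 replicate 3). It was also lower in ROF1 by the same test (-0.44, SE 0.08, adjusted p = 0.00099, and 0.011 without ROF1 replicate 2), and higher in HEK2 (0.51, SE 0.08, adjusted p = 3.7e-05). For *SAM2* the log2 fold-change in TOS8 was 0.32 (SE 0.1, adjusted p = 0.0078), a call lost without SFL1 replicate 3 or 4, HEK2 replicate 2 or 3, SAN1 replicate 3 or 4, ROF1 replicate 3 or 4, or TOS8 replicate 1 or 2. With the replicate block its adjusted p was 7.7e-05. Of the 51-base windows of these paralogs, 1.64% in *SAM1* and 1.63% in *SAM2* occur elsewhere in the R64 genome.

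*SAM4* (YPL273W) and *MHT1* (YLL062C) encode the homocysteine methyltransferases that use AdoMet and S-methylmethionine. *SAM4* was lower in TOS8 (-0.30, SE 0.06, adjusted p = 0.00014), but 19.7% of its 51-base windows also occur at *YMR321C* (chrXIII:917579-917862), and reads were not filtered on mapping quality, so its level is uncertain. *MHT1* differed in the F test (adjusted p = 0.0037) and passed the threshold in none of the 5 comparisons with the other strains, with log2 fold-changes of 0.11 in TOS8 (SE 0.07, adjusted p = 0.16) and 0.23 in SFL1 (SE 0.06, adjusted p = 0.011, and 0.0078 with the replicate block).

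Pairs of strains were compared directly in the same fit. SAN1 and ROF1 differed in 0 of 32 members, against 0.295% of all ORFs, and 11 members had an unadjusted p under 0.05 by edgeR. By edgeR's likelihood ratio test 2 members differed between them, and by DESeq2 4. Without ROF1 replicate 4 the count was 2, and without HEK2 replicate 4 or SAN1 replicate 4 it was 1. SFL1 and HEK2 differed in 3 (background 4.31%): *SUL1* was higher in SFL1 (background 0.988%), and *MET30* and *MET2* were lower (3.33%). SFL1 had 6 members different from SAN1 (background 9.1%), all 6 higher in SFL1 (3.64% of ORFs were), and the count was 3 without SFL1 replicate 2, SFL1 replicate 4 or SAN1 replicate 1. HEK2 had 8 members different from SAN1 (background 11.9%), all higher in HEK2 (7.14% of ORFs were).

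Against ROF1, SFL1 had 12 members different (background 15.3%), all higher in SFL1 (7.57% of ORFs were), or 14 in either direction with the replicate block, and HEK2 had 15 (background 18.3%), all higher in HEK2 (10.6%). SFL1 differed from TOS8 in 19 members (background 43.3%), HEK2 in 19 (47.7%), SAN1 in 14 (30.4%) and ROF1 in 17 (31%). Of the 19 in SFL1, 15 were higher in SFL1 than in TOS8 (background 21.5%) and 4 lower (21.9%), and for HEK2 16 were higher (23.4%) and 3 lower (24.3%). In SAN1, 12 were higher than in TOS8 (15.4%) and 2 lower (15%), and in ROF1 9 were higher (15.5%) and 8 lower (15.5%). The 8 that were lower in ROF1 than in TOS8 were *MUP1*, *SAM3*, *MMP1*, *MET8*, *HOM3*, *MET6*, *CYS3* and *MHT1*. The 9 that were higher in ROF1 were *SUL2*, *MET3*, *MET16*, *MET10*, *MET5*, *HOM2*, *HOM6*, *MET2* and *MET17*.

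Set by their call in TOS8, the members with matches to the motifs were spread over all classes. Of the 15 that fell in TOS8, 10 had a Cbf1 core, 7 a Met31/Met32 core and 6 a Gcn4 core in the 500 bases before the start codon. Of the 5 that rose, 3 had a Cbf1 core, 3 a Met31/Met32 core and 1 a Gcn4 core. Of the 12 not called, 8 had a Cbf1 core, 9 a Met31/Met32 core and 5 a Gcn4 core. These counts are a description with no test.

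Another list held 26 further genes of sulfur metabolism (uptake of cysteine and glutathione, glutathione synthesis, the methionine salvage route, thioredoxins and partners of Met30 among them), of which 25 were tested. In the F test 20 of these 25 differed, against the 58.5% of all ORFs. In TOS8, 7 were higher, a share near the 24.5% of all ORFs, and 11 lower, against 23.7%. In HEK2, 7 were higher (background 14.1%) and 1 lower (10.4%), and in SFL1 5 (7.93%) and 1 (8.26%). In ROF1, 0 were higher (4.24%) and 3 lower (4.61%), and in SAN1 2 (2.04%) and 0 (1.25%). *CBF1*, whose product brings Met4 to CACGTG, averaged 34.2 CPM in TOS8 and between 27.5 and 30.5 CPM in the other strains, and rose in TOS8 by 0.21 (SE 0.04, adjusted p = 0.00031).

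Of that list, *OPT1*, a transporter of glutathione and oligopeptides, had the largest range (1.69 on the log2 scale). It stood at 26.3, 25.1, 17.9 and 27.9 CPM in TOS8, against 87.4, 76.7, 71.9 and 76 CPM in SFL1, 67.6, 66.1, 72.9 and 73.8 CPM in HEK2, 32.8, 44.2, 44 and 25.8 CPM in SAN1 and 29.6, 25.3, 32.9 and 43.2 CPM in ROF1. The SFL1 and HEK2 libraries were all above those of the other 3 strains, which overlapped. *OPT1* fell in TOS8 by 1.05 (SE 0.13, adjusted p = 9.1e-07).

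*MUP3*, a low-affinity methionine permease, stood at 115, 129, 120 and 122 CPM in TOS8, against 190, 187, 193 and 189 CPM in SFL1, 255, 248, 228 and 329 CPM in HEK2, 202, 178, 203 and 211 CPM in SAN1 and 162, 163, 161 and 163 CPM in ROF1. TOS8 was below and HEK2 above all other libraries, the order seen for *MET2*, and opposite in TOS8 to the high-affinity permease *MUP1*. Its log2 fold-change was -0.72 in TOS8 (SE 0.07, adjusted p = 2.5e-08) and 0.69 in HEK2 (adjusted p = 7.5e-08). *YCT1*, a cysteine transporter, stood at 371, 311, 358 and 301 CPM in TOS8, against 203, 179, 109 and 104 CPM in SFL1, 193, 170, 161 and 200 CPM in HEK2, 419, 241, 168 and 160 CPM in SAN1 and 333, 260, 200 and 167 CPM in ROF1. The SAN1 and ROF1 libraries spread widely and overlapped with TOS8, and *YCT1* rose in TOS8 by 0.74 (SE 0.19, adjusted p = 0.0024). Within SAN1, ROF1 and SFL1 its level fell at each step from replicate 1 to replicate 4, an order not seen in HEK2 or TOS8.

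The table also counts noncoding and other features, of which 22 overlap 12 members on the opposite strand. Of these, 19 were tested and 3 differed among strains in the F test, against 15.9% of the other features. Levels here are CPM within the other features, a scale apart from that of the ORFs. The 3 were SUT2574.1 and SUT2574.2, opposite *SAM4*, and 16R-9, opposite *SAM3*. SUT2574.1 stood at 753, 759, 512 and 445 CPM in HEK2, against 694, 498, 493 and 370 CPM in SFL1, 413, 523, 461 and 341 CPM in SAN1, 238, 308, 346 and 400 CPM in ROF1 and 298, 349, 283 and 367 CPM in TOS8. HEK2 overlapped with SFL1 and SAN1 and lay above ROF1 and TOS8, and the feature rose in HEK2 by 0.69 (adjusted p = 2.9e-05). No feature was annotated on the same strand within a member. The antisense features of *SUL1* and *SUL2*, which cover up to 100% of those ORFs, did not pass the F test (adjusted p between 0.09 and 0.95).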

How the data were processed

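RNA-seq was run on 20 libraries, 4 per overexpression strain, prepared with a stranded mRNA kit and sequenced as paired 51-base reads. The authors aligned read pairs to the S288c genome (R64-1-1, extended with F45 genes and noncoding RNAs) with Bowtie2 2.1.0 and deposited raw counts per feature from featureCounts 1.4.0, assigned by strand and with no filter on mapping quality. Groups came from the genotype labels. Per the study's methods, each replicate sample was its own pool of several colonies, and whether these came from separate platings or days is not given, so p-values measure the spread between such pools.

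ORFs and other features were analysed apart. Those whose median over the libraries reached 1 CPM were TMM-scaled and fitted with 1 mean per strain in edgeR 4.0.16 (limma 3.58.1, R 4.3.3). Quasi-likelihood tests with Benjamini-Hochberg adjustment over all features tested were called at a false discovery rate below 0.01, and all adjusted p-values in the text are from these edgeR fits unless DESeq2 1.42.0 is named. Normalized CPM are TMM-scaled, and log2 CPM used a prior count of 2. The smallest library held 6027147 counts, and depth limits the low members most.

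The members and all lists were chosen with earlier results of these data known. Values in every library are given for the 8 members with the largest range of strain means that passed the F test and for those with the largest rise and fall in each strain. Library values of further members were added after they were seen. A promoter table was not given, so the windows of 500 bases before each start codon, a length set after the values were seen, were read from the R64 genome. The coordinates of all 32 members were the same in RefSeq R64.

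Replicate numbers were given in accession order, which is also the order of the YSEQ labels that the titles share across strains. As no source used here says what these labels mark, fits had no block, and blocked values are given where a call changed. Deviations of same-numbered libraries from their strain means correlated positively in all 4 pairs for SFL1 with HEK2, SAN1 and ROF1, and for HEK2 with SAN1. Alternatives were a likelihood ratio test, DESeq2, RLE size factors, no filter, a minimum of 10 counts, the replicate number as a block, and leaving out each library.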

Additional observations from a re-analysis of the deposited data

Results flagged for a closer look

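Within strains of 4 libraries, 9 of 160 combinations of member and strain had 1 library far from the other 3 by Dixon's test at the 95% level. Chance gives about 1 in 20. HEK2 replicate 4 was apart for 3 members, with *MET30* at 292 CPM (others 228 to 238), *MET14* at 50.6 CPM (others 62.4 to 64.6) and *MET16* at 21.6 CPM (others 29.2 to 30.4). SAN1 replicate 4 was apart for *MET28*, at 20.8 CPM (others 15.7 to 16.5), and for *SAM1*, at 381 CPM (others 496 to 519). In TOS8 replicate 4, *MET30* stood at 181 CPM (others 197 to 198) and *STR3* at 77 CPM (others 88.3 to 90). SAN1 replicate 3 had *SUL1* at 30.4 CPM (others 25.3 to 25.8), and SAN1 replicate 2 had *CYS3* at 236 CPM (others 195 to 201).

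Without HEK2 replicate 4, *MET30* and *MET16* stayed called as higher in HEK2, and without TOS8 replicate 4 *STR3* stayed called as lower in TOS8.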

How the results depend on the processing

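With RLE size factors, no filter or a minimum of 10 counts in every library, all 55 calls of members against the other strains remained, and scaling moved the median of all ORFs by at most 0.0051 (log2). The likelihood ratio test lost 0 of the 55 and added 6, DESeq2 lost 0 and added 7, and no call turned its direction under any alternative. The likelihood ratio test gave 5 members for SFL1 against HEK2 (3 by the quasi-likelihood test) and 2 for SAN1 against ROF1 (0). DESeq2 gave 1 member higher in SAN1 and 1 in ROF1 (0 each), 6 for SFL1 against HEK2 and 4 for SAN1 against ROF1.

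With the replicate number as a block, 2 of the 55 calls were lost and 10 added. Members lower in SFL1 were then 0 (1 without the block), lower in HEK2 3 (1), lower in SAN1 0 (1) and higher in TOS8 8 (5), and 27 members differed in the F test (24). Same-numbered libraries of different strains share a YSEQ label in their titles, of unstated meaning. Their deviations correlated at 0.114 on average (-0.37 to 0.441), and 8 of 20 libraries correlated best with their own number, out of 4 numbers. All 4 pairs correlated positively for SFL1 with HEK2 (lowest 0.0683), SAN1 (0.099) and ROF1 (0.159), and for HEK2 with SAN1 (0.0628). For SFL1 and ROF1 the block gave 14 members (12 without it), and for the other 3 of these comparisons the counts stayed at 3, 6 and 8.

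Leaving out each library in turn, 21 to 27 members differed in the F test. Members higher and lower were 3 to 7 and 14 to 15 in TOS8, 6 to 9 and 0 to 1 in SFL1, 13 to 15 and 0 to 2 in HEK2, 0 to 0 and 0 to 1 in SAN1, and 0 to 1 and 2 to 12 in ROF1. Between pairs, 3 to 7 differed for SFL1 and SAN1 and 0 to 2 for SAN1 and ROF1. The cause of these shifts was not tested.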
